A study of Mus musculus with 6 samples.

Results

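The transcripts described here are those that the array annotates to a microRNA (miRNA) gene. A transcript cluster, the unit of the array, is a set of probes summarised as 1 value, and a cluster was taken as a member where its annotation names exactly 1 gene and that gene is a miRNA gene (a symbol starting with Mir and a digit, or with Mirlet7). Of 65956 clusters on the array 638 were members, and they stand for 592 miRNA genes. No measured value was used to choose them. The arrays profiled cultured mouse lung fibroblasts with intact Atf4 (LF ATF4 WT, genotype Atf4wt/wt, 3 arrays) or with Atf4 deleted (LF ATF4 KO, 3 arrays). The deleted genotype is labelled Atf4D/D. All mice carried the tamoxifen-inducible Cre recombinase Rosa26::CreERT2, which is not restricted to 1 cell type, on a C57BL/6 background, with wild-type Atf4 alleles or with alleles whose coding exons lie between loxP sites (Atf4 fl/fl). Both groups of young adult mice received tamoxifen, lung tissue of several males and females was digested together, both kinds of culture were kept with 4-hydroxytamoxifen, and RNA was taken at passage 2. The replicates are called biological, but nothing states whether they came from separate digests, so the p-values measure only the spread between these cultures. Atf4, the transcription factor of the integrated stress response that was targeted, lay between 8.67 and 8.95 in the WT arrays and between 7.48 and 7.73 in the KO arrays, a 2.32-fold lower value (adjusted p = 0.000497, limma). All values are log2 values on the deposited scale and every difference is LF ATF4 KO minus LF ATF4 WT.

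A miRNA is cut out of a longer primary transcript, which is often a long noncoding RNA or the intron of a protein-coding gene. The enzyme Drosha releases a hairpin, Dicer trims it to a short duplex, and one strand is loaded into an Argonaute protein, where the bases near its 5′ end, the seed, pair with target mRNAs that are then repressed. In fibroblasts miRNAs are known above all for tuning matrix genes, growth and contractility. The array probes read RNA that contains the hairpin sequence, so the values report precursor and host transcripts and not the mature miRNAs.

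The mature sequences of the let-7 family are shown first because 5 of its members were lower in LF ATF4 KO and all strands shown share the seed GAGGUAG and differ elsewhere. Here and below capitals mark the seed (bases 2 to 8), sequences run 5′ to 3′, and sequences and positions are those of RefSeq for GRCm38.p6.
let-7i-5p (Mirlet7i, chr10:122985698-122985719, minus strand, lower): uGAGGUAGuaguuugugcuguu
let-7d-5p (Mirlet7d, chr13:48536078-48536099, minus strand, lower): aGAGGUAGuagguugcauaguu
let-7f-5p (Mirlet7f-1, chr13:48537889-48537910, minus strand, lower): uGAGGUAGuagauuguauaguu
let-7c-5p (Mirlet7c-1, chr16:77599672-77599693, plus strand, lower; also Mirlet7c-2, lower): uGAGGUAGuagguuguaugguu
let-7b-5p (Mirlet7b, chr15:85707325-85707346, plus strand, not called): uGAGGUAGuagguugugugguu
let-7e-5p (Mirlet7e, chr17:17830366-17830387, plus strand, not called): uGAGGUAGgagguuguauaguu
let-7g-5p (Mirlet7g, chr9:106178846-106178867, plus strand, not called): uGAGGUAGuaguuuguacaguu
miR-98-5p (Mir98, chrX:151913229-151913250, plus strand, not called): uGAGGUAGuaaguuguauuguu

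The next set holds strands of lower members described below, chosen among those with large falls or with a seed that another member shares, and it is not complete (Mir5123 is shown further on as a hairpin). Mir1192 and Mir495 lie on different chromosomes and share the seed AACAAAC, and Mir130a and Mir301 share AGUGCAA.
miR-3100-5p (Mir3100, chr7:19086828-19086850, plus strand): uUGGGAACggggugucuuuggga
miR-1906 (Mir1906-2, chrX:88759485-88759506, minus strand): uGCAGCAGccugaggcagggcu
miR-453 (Mir453, chr12:109735669-109735692, plus strand): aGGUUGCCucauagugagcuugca
miR-495-3p (Mir495, chr12:109718795-109718816, plus strand): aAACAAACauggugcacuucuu
miR-1192 (Mir1192, chr19:23149450-23149471, plus strand): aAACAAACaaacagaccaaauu
miR-130a-3p (Mir130a, chr2:84741116-84741137, minus strand): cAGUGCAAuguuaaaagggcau
miR-301a-3p (Mir301, chr11:87113054-87113076, plus strand): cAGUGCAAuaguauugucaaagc
miR-218-5p (Mir218-1, chr5:48223966-48223986, plus strand; the same sequence in Mir218-2): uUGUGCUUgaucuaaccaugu
miR-224-5p (Mir224, chrX:72261085-72261105, minus strand): uAAGUCACuagugguuccguu
miR-100-5p (Mir100, chr9:41531437-41531458, plus strand): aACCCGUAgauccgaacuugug
miR-199a-3p (Mir199a-1, chr9:21496498-21496519, minus strand): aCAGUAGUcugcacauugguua

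The members that were higher in LF ATF4 KO have unlike seeds, as the strands below show.
miR-142a-3p (Mir142, chr11:87756903-87756925, plus strand): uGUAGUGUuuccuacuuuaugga
miR-3088-5p (Mir3088, chr2:28733286-28733307, plus strand): gCUAUGCAguuguucaugagcu
miR-511-3p (Mir511, chr2:14261051-14261072, plus strand): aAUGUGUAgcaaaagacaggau
miR-692 (Mir692-1, chr17:6895259-6895279, minus strand): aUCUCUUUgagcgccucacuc
miR-3110-5p (Mir3110, chrX:38210453-38210473, plus strand): uUCUGCCUccccugaaggcuc
miR-342-3p (Mir342, chr12:108658680-108658702, plus strand): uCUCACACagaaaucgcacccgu

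Cell type markers were read in the same arrays beside the miRNAs. Of 11 fibroblast markers measured all were at or above the median cluster, with median levels of 16.04 to 16.30 in the WT arrays and 13.98 to 15.24 in the KO arrays, and 5 were lower in LF ATF4 KO. Of 21 leukocyte markers 15 were higher in LF ATF4 KO, with median levels of 8.53 to 8.86 against 11.72 to 12.49 and a median difference of 2.43. The pan-leukocyte marker Ptprc and the macrophage markers Adgre1 and Csf1r were among them. The T cell, B cell and natural killer cell markers Cd3e, Cd79a, Ms4a1 and Nkg7 stayed between 3.85 and 4.68 in both group means. Neither these nor the leukocyte markers Cx3cr1 (0.18) and Ccr2 (0.04) were called. Of 10 mesothelial markers 8 were lower and 1 higher, with a median difference of -2.36. Epithelial markers had array medians of 4.95 to 5.06, near the array medians of 4.87 to 4.91, and 1 of 9 was higher. Of 9 endothelial markers 3 were higher, among them Pecam1 and Vwf, all 9 were above 0, the groups were apart in 8, and the median difference was 0.47, with array medians of 5.17 to 5.28 in the WT arrays and 5.61 to 5.92 in the KO arrays. The part of these cells in the miRNA differences was not tested, and in bulk RNA fewer cells of a type and less RNA per cell cannot be told apart.

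Most miRNA clusters gave low values. The median member lay between 5.09 and 5.21 in the WT arrays and between 4.97 and 5.06 in the KO arrays, and on average 55.2% of members were at or above the median of their array. Only 67 members reached a mean of 8 and 19 a mean of 12. The brightest were Mir3473a at a mean of 18.01, Mir3470b at 17.39, Mir1954 at 16.27, Mir703 at 16.19 and a Mir669e cluster at 15.76. Mir6240, Mir1191, Mir3473f and Mir692-1 completed the 10 brightest clusters, in which Mir3470b stands with 2. Of these 10 only Mir692-1 was called between genotypes. Levels of different clusters depend on their probes and cannot be read as an order of RNA abundance. For 42 genes with more than 1 member cluster this was direct, since the clusters of Mir669e had means of 5.74 and 15.76 and those of Mir3471-1 had means of 7.03 and 14.90. The share of G and C in the hairpin showed no relation to the level over 424 hairpins, which share the same arrays (Spearman's rho -0.02, a description). The cluster identifier named the RefSeq chromosome of the gene for 566 members and another chromosome for 34, and 37 were unmapped. All called clusters were among the 566 but for the second clusters of Mir224 and Mir342, which are unmapped and repeat the values of the first.

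Between genotypes 44 members (6.9%) were called, that is, they differed more than 1.5-fold with a Benjamini-Hochberg adjusted p in limma no higher than 0.05 over all clusters, against 4.85% of all clusters. Lower in LF ATF4 KO were 37 members (5.8%) of 36 genes, against 2.57% of all clusters, and higher were 7 members (1.1%) of 6 genes, against 2.28%. The WT and KO arrays did not overlap for any of the 44. Over all members the groups were apart in 198 (31%), against 30.1% of all clusters. The difference was below 0 in 443 members and its median was -0.08, where the median over all clusters was 0.00. Without WT replicate 3, 29 members passed and 22 of them were lower. Of the 42 genes called, 21 kept their call whichever array was left out. Calls were most frequent among members with a mean of 6 to 8 (16.7%, against 11.7% of all clusters at that level). They were least frequent under 4 (0.719%, against 0.00917%). At 4 to 6 the shares were 4.08% of members and 1.3% of all clusters. At 8 to 12 they were 14.6% and 14.8%, and at 12 and above 5.26% and 11.7%.

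**Figure D1:**
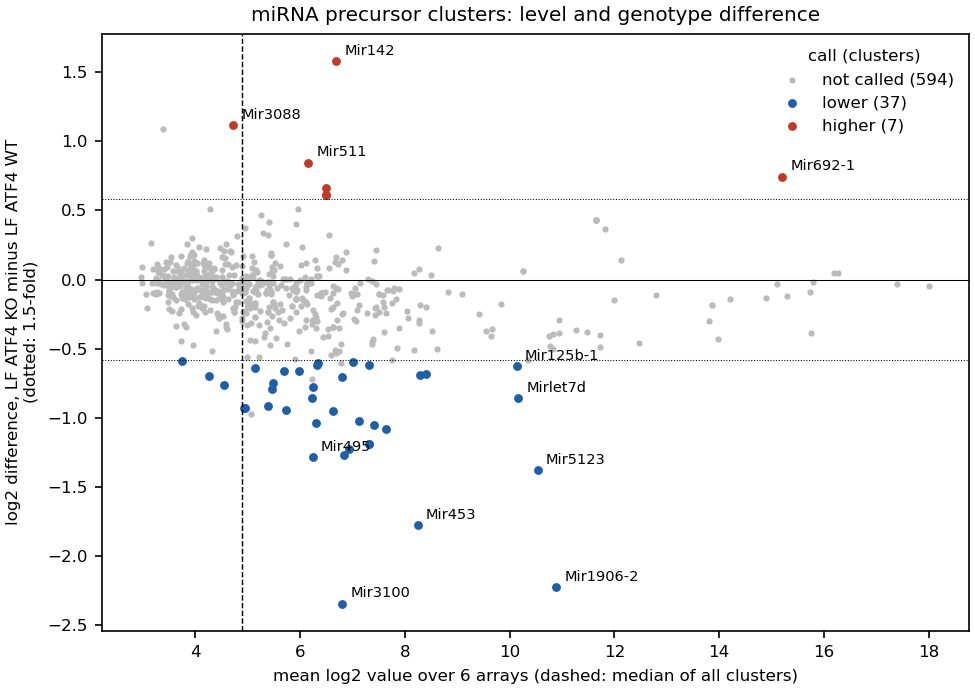
Each point is 1 of the 638 miRNA clusters, with its mean log2 value over 6 arrays on the horizontal axis and its log2 difference, LF ATF4 KO minus LF ATF4 WT, on the vertical axis. The 37 lower members in blue reach -2.34 and the 7 higher members in red reach 1.58, while of the 19 members at a mean of 12 and above only Mir692-1, at 0.74, was called.

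The largest fall was that of Mir3100, which lies within Dmpk, the gene of the kinase affected in myotonic dystrophy. Its values were 7.88, 7.77 and 8.29 in the WT arrays and 5.76, 5.26 and 5.90 in the KO arrays. Every KO array lay below every WT array, with a difference of -2.34 ± 0.19 (s.e., 5.07-fold, adjusted p = 0.000458, limma). The cluster of Dmpk itself read 12.33, 12.33 and 12.62 against 10.27, 9.81 and 10.91, a difference of -2.10 (adjusted p = 0.0021). Host and miRNA fell by about the same amount.

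Mir1906-2 was the second. It read 11.65, 11.78 and 12.55 in the WT arrays and 9.91, 8.90 and 10.50 in the KO arrays. The groups were apart, with the widest spread in LF ATF4 KO, and the difference was -2.22 ± 0.41 (4.67-fold, adjusted p = 0.0118). RefSeq places this gene on chromosome X, and it gives the same mature sequence, the miR-1906 printed above, for Mir1906-1 on chromosome 12. The cluster annotated jointly to Meg3, Mir770 and both Mir1906 genes read 8.14, 8.29 and 8.76 against 7.20, 6.60 and 7.40, a difference of -1.33. In both clusters WT replicate 3 was the highest and KO replicate 2 the lowest array.

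Mir5123 lies within B4galt1, which encodes a galactosyltransferase of glycan synthesis. Its values were 11.00, 11.17 and 11.51 against 9.92, 9.92 and 9.70. The KO arrays agreed closely and lay below all WT arrays, a difference of -1.38 ± 0.13 (adjusted p = 0.000858). B4galt1 itself had -0.34 (adjusted p = 0.0300), under the 1.5-fold limit. The hairpin on the minus strand of chromosome 4 is shown because the mature stretch, in capitals, occurs in it more than once.
Mir5123 hairpin (chr4:40850056-40850138, minus strand): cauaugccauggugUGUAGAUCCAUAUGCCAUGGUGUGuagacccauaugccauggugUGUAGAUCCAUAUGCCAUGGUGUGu

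Mir224 and Mir452 are neighbours within Gabre, the gene of a GABA receptor subunit, on the X chromosome. Mir224 read 7.83, 7.88 and 8.04 in the WT arrays and 6.90, 6.67 and 6.61 in the KO arrays. Mir452 read 6.05, 6.11 and 6.48 against 5.15, 5.25 and 5.41. Neither pair of groups overlapped, and the differences were -1.19 ± 0.09 (adjusted p = 0.000422) and -0.94 ± 0.12 (adjusted p = 0.00319). Gabre fell as well, from 9.94, 9.78 and 10.05 to 8.30, 8.43 and 8.18, a difference of -1.62. A second cluster of Mir224, with no mapped position, held the same values and counts as a member of its own.

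Mir218-1 and Mir218-2, which encode the same mature strand, lie within Slit2 and Slit3, genes of secreted guidance proteins. Mir218-1 read 6.91, 7.10 and 7.32 against 6.16, 6.48 and 5.85, and Mir218-2 read 5.86, 5.75 and 5.99 against 4.93, 5.22 and 5.07. Both pairs of groups were apart, with differences of -0.95 ± 0.17 (adjusted p = 0.0104) and -0.79 ± 0.09 (adjusted p = 0.00201). The hosts moved the same way, Slit2 by -0.65 and Slit3 by -1.31.

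Other falls of over 2-fold were in miRNAs that share no host with those above. Mir130a, a miRNA known from blood vessel growth, read 7.88, 7.84 and 8.12 against 6.91, 6.97 and 6.80. That is a difference of -1.05 ± 0.09 (adjusted p = 0.000546) with groups far apart. Mir1192, within the gene of the transcription factor Klf9, read 8.06, 8.27 and 8.20 against 7.29, 7.21 and 6.79, a difference of -1.08 ± 0.13 (adjusted p = 0.00228), where Klf9 had -0.45 and was not called. Mir143, known from smooth muscle and activated fibroblasts, read 7.32, 7.40 and 7.95 against 6.29, 6.11 and 6.60, and its groups did not overlap (-1.23 ± 0.19, adjusted p = 0.00566). These 3 kept their call whichever array was left out.

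**Figure D2:**
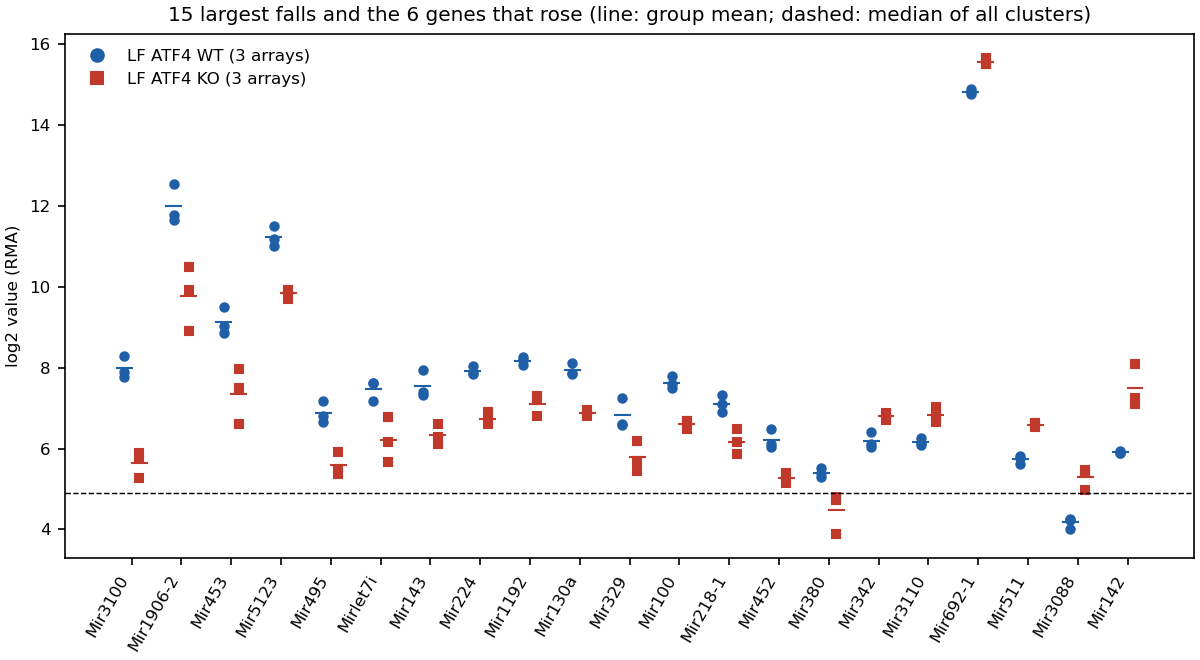
Log2 values of the 15 genes with the largest falls and of the 6 genes that rose, with a circle for each LF ATF4 WT array and a square for each LF ATF4 KO array; short lines are group means and the dashed line is the median of all clusters. In every gene shown the 3 circles and the 3 squares do not overlap, and Mir142 rose from about 5.9 to between 7.11 and 8.08.

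The let-7 family, which restrains growth genes and marks differentiated cells, was measured at 12 loci. Of these 5 were lower (41.7%, against 2.57% of all clusters) and 10 were below 0. None was called higher (0 also at an unadjusted p under 0.05, by limma and by Student's t-test). The median difference was -0.59, where that of all members was -0.08. Without WT replicate 2 or KO replicate 2 the number of let-7 loci called lower was 3. This list and those below were chosen with earlier results of these data known, so their shares are descriptions only. Mirlet7d, the brightest, read 10.57, 10.56 and 10.65 in the WT arrays and 9.87, 9.55 and 9.80 in the KO arrays. Its groups were far apart against their spread (-0.86 ± 0.09, adjusted p = 0.00112). Mirlet7i read 7.17, 7.62 and 7.63 against 6.77, 6.17 and 5.67, the largest fall of the family at -1.27 ± 0.27 (adjusted p = 0.0206). Mirlet7c-1 read 4.86, 4.75 and 5.20 against 4.12, 4.10 and 4.31 (-0.76, adjusted p = 0.00685). Its KO values lay below the median cluster, and so did those of WT replicates 1 and 2.

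Mirlet7c-2 had a difference of -0.62 (adjusted p = 0.00295) and Mirlet7f-1 one of -0.61 (adjusted p = 0.0181), both with separate groups. Mirlet7i lost its call without WT replicate 2, WT replicate 3 or KO replicate 2, where its adjusted p was between 0.0562 and 0.0786. Mirlet7f-1 lost it without WT replicate 1 or 2 or KO replicate 2 or 3, with adjusted p-values of 0.0506 to 0.0714, and Mirlet7c-2 fell under the fold limit without WT replicate 3, at -0.54. Of the loci that were not called, Mirlet7b had -0.56 (adjusted p = 0.00379, 1.47-fold), Mirlet7e -0.72 (adjusted p = 0.0679), Mirlet7a-1 -0.47 and Mirlet7a-2 -0.23. Mirlet7f-2 (-0.09), Mir98 (0.08) and Mirlet7g (0.13) were near 0. The loci on one stretch of chromosome 13, Mirlet7d, Mirlet7f-1 and Mirlet7a-1, thus had -0.86, -0.61 and -0.47, and in the pair of chromosome X, Mirlet7f-2 and Mir98, neither was called. Mirlet7f-1 and Mirlet7f-2 encode the same let-7f strand.

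Several let-7 genes sit beside members of the miR-99 and miR-100 family and of miR-125. Mir100, next to Mirlet7a-2, read 7.59, 7.51 and 7.81 against 6.67, 6.48 and 6.68. The groups did not overlap, and their means differed by -1.02 ± 0.09 (adjusted p = 0.000741). Mir125b-1, in the same long noncoding host transcript Mir100hg, had -0.63 ± 0.08 (adjusted p = 0.00233), which fell under the fold limit at -0.58 without KO replicate 1. The cluster of Mir100hg itself had -0.22 and was not called. Mir99a, which shares the seed ACCCGUA with Mir100 and lies beside Mirlet7c-1, had -0.52 (adjusted p = 0.0319) and missed the fold limit, Mir99b had -0.13, and Mir125b-2 had -0.38.

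**Figure D3:**
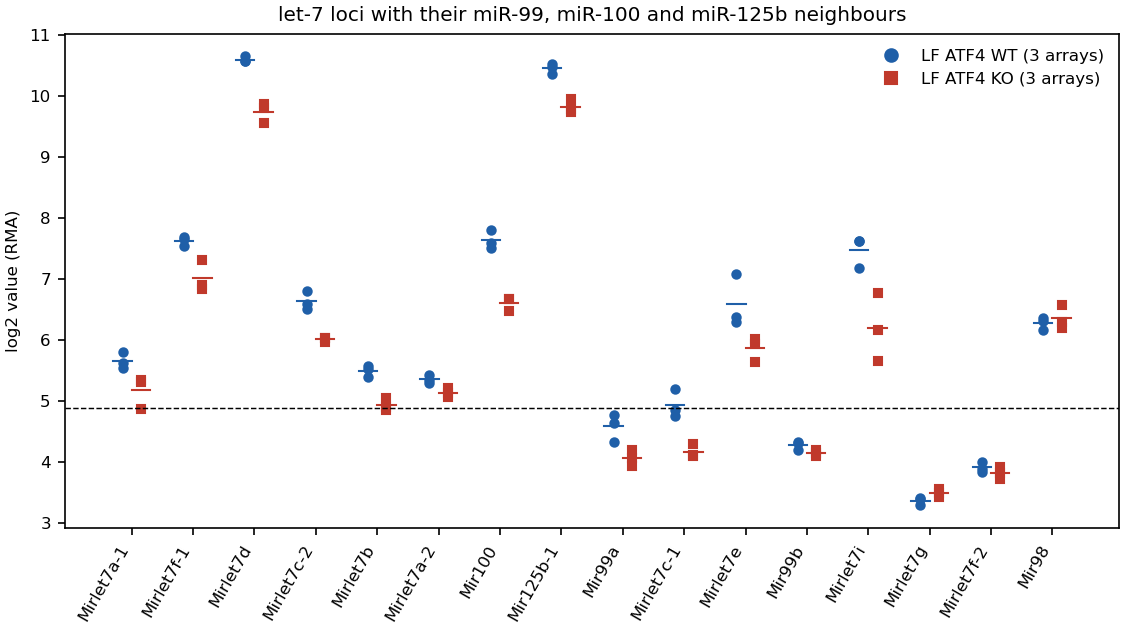
Log2 values per array at the let-7 loci and at Mir100, Mir125b-1, Mir99a and Mir99b, ordered by genomic neighbourhood, with circles for LF ATF4 WT, squares for LF ATF4 KO, short lines for group means and a dashed line at the median of all clusters. The groups lie apart at Mirlet7d, Mirlet7i, Mir100 and Mir125b-1 and overlap at Mirlet7f-2 and Mir98.

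The imprinted region between Dlk1 and Dio3 on chromosome 12 holds one of the largest sets of miRNA genes in the mouse genome, processed from noncoding RNAs of the maternal chromosome that include Meg3, Rian and Mirg. Of 61 miRNA genes that RefSeq places there 42 were members, 14 were lower in LF ATF4 KO, none was higher, and 39 were below 0, with a median difference of -0.42. Groups that did not overlap were found in 30.1% of all clusters, and in 30 of the 42 members here. None was higher at an unadjusted p under 0.05 by limma or by Student's t-test either. Outside the region 23 of 596 members (3.86%) were lower. The 3 members above 0 were Mir673, Mir370 and Mir3544, and Mir3544 is read from the opposite strand to Mir337, whose difference was -0.23 where that of Mir3544 was 0.13.

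Mir453 fell most in the region. It read 9.03, 8.86 and 9.51 in the WT arrays and 7.51, 6.60 and 7.97 in the KO arrays. The groups were apart, with a difference of -1.77 ± 0.33 (3.42-fold, adjusted p = 0.0133). Without WT replicate 3 its adjusted p was 0.0506. Mir495 read 6.82, 6.67 and 7.17 against 5.50, 5.38 and 5.92, a difference of -1.29 ± 0.17 (adjusted p = 0.00328). Mir329 read 6.59, 6.61 and 7.25 against 5.70, 5.46 and 6.19, a difference of -1.04 ± 0.23 (adjusted p = 0.0263). In all 3 the lowest WT array was above the highest KO array. The other 11 lower members had differences of -0.93 to -0.59. They were Mir380 (-0.93), Mir323 (-0.93), Mir1197 (-0.91), Mir493 (-0.85), Mir1193 (-0.70), Mir667 (-0.68), Mir679 (-0.66), Mir543 (-0.66), Mir154 (-0.64), Mir539 (-0.61) and Mir487b (-0.59). Mir1193 (WT mean 4.61, KO mean 3.91) and Mir487b (4.05 and 3.46) had both group means below the median cluster. Of the 44 called members 42 reached it in the higher group. With the dim filter the region had 12 lower members. By the call limits, lower members and members that were not called were mixed along the region. In the miR-376 group Mir376c had -0.57, Mir376b -0.56 and Mir376a -0.44 without a call, although the groups of each were apart. Mir495 and Mir667 on one side and Mir487b and Mir539 on the other were lower. A cluster annotated with 2 names of Mir300, and so not a member, was lower as well (-1.26, adjusted p = 0.00259, limma). Nearer to Dlk1, from Mir337 to Mir299a, no member was called and the differences lay between -0.47 and 0.13.

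Clusters annotated to the noncoding RNAs of the region were lower too, with -1.33 for that of Meg3, -1.59 for that of Rian and -0.83 for that of Mirg. Each of these is annotated to several genes, miRNA or small nucleolar RNA genes among them. The protein-coding genes at either end were at -0.05 for Dlk1 and -0.11 for Dio3, near or below the median cluster and not called. The arrays were not equally often the extreme of their group. Among the 14 lower members WT replicate 3 was the highest WT array in 12. KO replicate 2 was the lowest KO array in 12 of them and KO replicate 1 in 2. Among the 23 lower members outside the region WT replicate 3 was the highest in 19 and KO replicate 2 the lowest in 7. The high values of WT replicate 3 were thus not particular to the region. Being the extreme array did not track the loss of calls. Leaving out WT replicate 3 or KO replicate 1 left 2 lower members in the region, KO replicate 2 left 6 and WT replicate 2 left 8, while 39 of 42 were below 0 in each of these fits and the median lay between -0.46 and -0.33. Mir495 alone kept its call whichever array was left out.

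**Figure D4:**
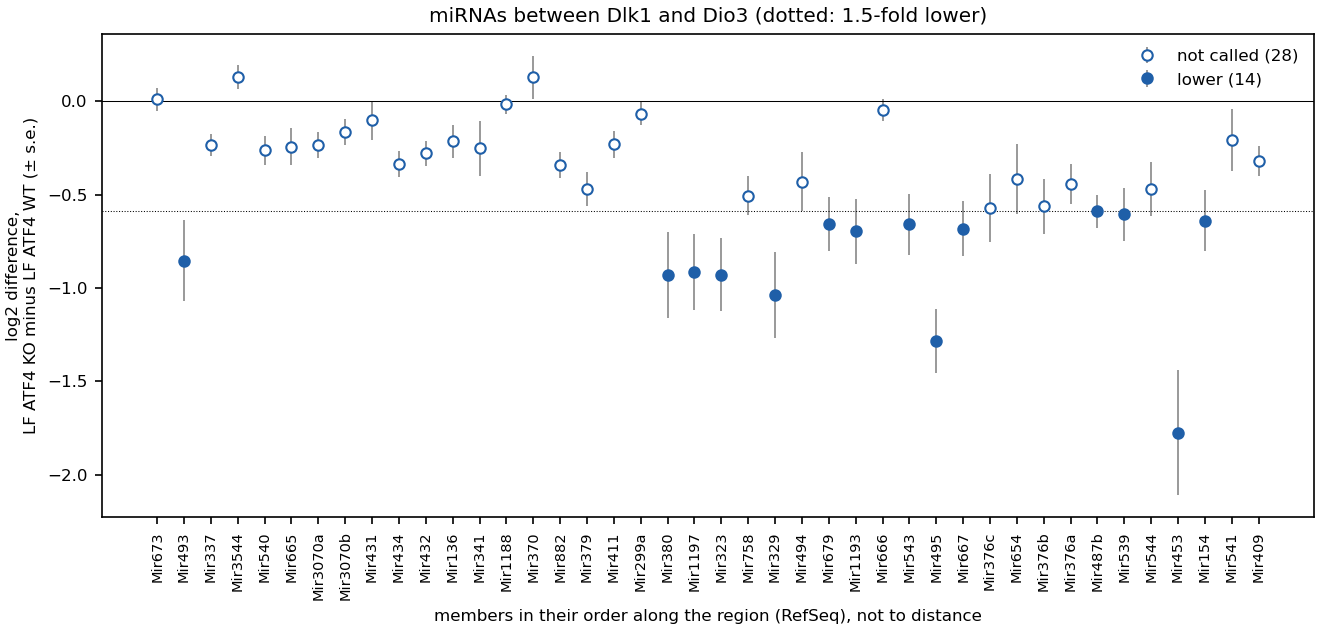
Log2 difference, LF ATF4 KO minus LF ATF4 WT, with its standard error for the 42 miRNA clusters between Dlk1 and Dio3, in their order along the region. Filled points are the 14 lower members, which lie from -0.59 to -1.77, and 39 of the 42 points lie below 0.

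The region within Sfmbt2 on chromosome 2, which holds one of the largest miRNA clusters of rodents, showed no call in limma. Of its 77 member clusters 73 were below 0, the median was -0.20, and 15 were lower at an unadjusted p under 0.05 (4 by Student's t-test, which also made no call). For 68 of the 77 the cluster identifier names the chromosome that RefSeq gives for the gene, and 66 of these were below 0, with differences of -0.50 to 0.07. With clusters of identical values counted once, 51 of 55 were below 0. In the fits without single arrays it had 3 lower members without KO replicate 2 and 1 higher member without KO replicate 1.

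Higher members were few, and 3 of the 6 genes, Mir142, Mir511 and Mir342, are known from blood cells. Mir142, which is expressed throughout the haematopoietic lineages, read 5.94, 5.89 and 5.89 in the WT arrays and 8.08, 7.26 and 7.11 in the KO arrays. The WT arrays hardly differed and every KO array was over 1 log2 unit above them (1.58 ± 0.23, 2.99-fold, adjusted p = 0.00473). Mir511 lies within Mrc1, the mannose receptor gene of macrophages, and read 5.77, 5.82 and 5.61 against 6.58, 6.54 and 6.62 (0.84 ± 0.07, adjusted p = 0.000497). Its host rose from 13.23, 12.92 and 12.84 to 15.79, 15.18 and 15.15, a difference of 2.37. Mir342, in the gene of the actin regulator Evl, read 6.11, 6.04 and 6.41 against 6.89, 6.81 and 6.70, a difference of 0.61 ± 0.11 (adjusted p = 0.00936), beside 1.26 for Evl. It fell under the fold limit without WT replicate 1 or 2 or KO replicate 1, where it was 0.54 to 0.57.

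Of the 7 haematopoietic miRNAs measured these 3 were higher (42.9%, against 2.28% of all clusters) and none was lower. Mir146 (0.17), Mir146b (0.16), Mir150 (-0.03) and Mir486 (-0.03) were not called, and Mir150, known from mature lymphocytes, lay between 3.28 and 3.41 in all arrays. The median of the 21 leukocyte markers was 5.40-fold higher in the same arrays, and the part of such cells in these values was not tested.

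The other risers were not on the haematopoietic list, and a link of these to blood cells was not tested. Mir3088, in the adenylate kinase gene Ak8, read 4.23, 4.27 and 4.02 against 4.98, 5.41 and 5.47 (1.11 ± 0.14, adjusted p = 0.00225), with 0.38 and no call for Ak8. Mir692-1 read 14.90, 14.77 and 14.82 against 15.67, 15.52 and 15.52 (0.74 ± 0.07, adjusted p = 0.000681). It was the only one called of the 19 members with a mean of 12 and above, and the array annotates further copies of Mir692 together with the ferritin light chain genes Ftl1 and Ftl2. Mir3110 read 6.14, 6.10 and 6.26 against 7.04, 6.77 and 6.66 (0.66 ± 0.10, adjusted p = 0.00608), which fell under the fold limit at 0.55 without KO replicate 1.

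For 167 members the array also measured a gene on the same strand that contains the whole miRNA gene, here called the host. Of the 13 called members with a host, 7 had a host called in the same direction, 6 had a host that was not called, and none had one called the other way. The reverse did not hold: of 23 members whose host was called, 16 were not, although 18 of the 23 had a difference of the same sign as the host. Among the 16, Mir717 and Mir6384 lie within Gpc3, a heparan sulfate proteoglycan gene that fell by 2.97 on the log2 scale, and had 0.06 and -0.13. Mir767 and Mir105 had -0.09 and -0.11 where their host Gabra3 fell by 1.82, and Mir1962 had -0.02 where Ptpre, a phosphatase gene, rose by 1.73. Over the 167 pairs the differences of miRNA and host had a Spearman's rho of 0.40, a description only, since a pair can share transcripts and all pairs share the arrays.

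**Figure D5:**
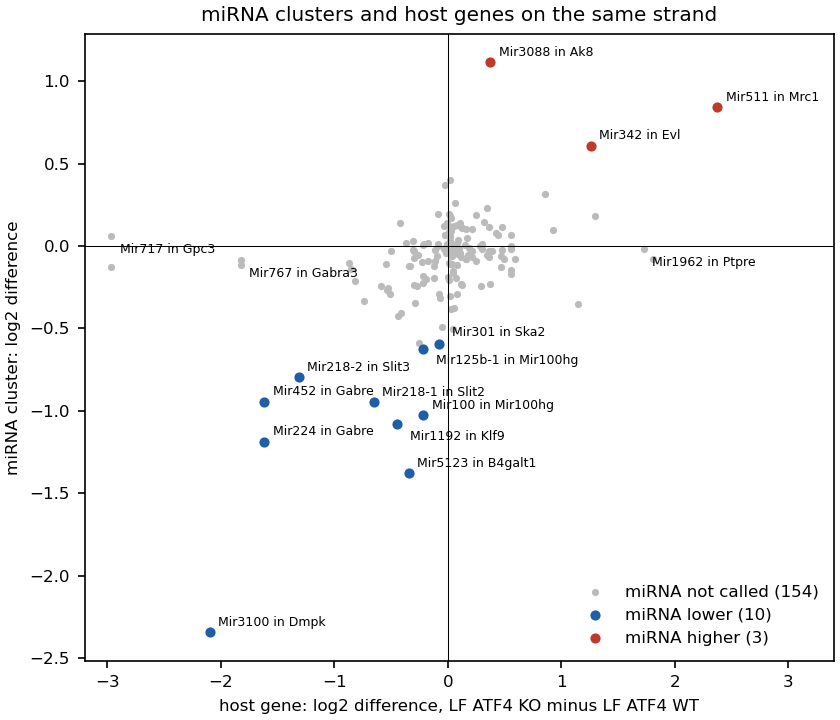
Log2 difference of each of 167 miRNA clusters (vertical axis) against that of the gene which contains it on the same strand (horizontal axis). The called members in blue and red lie in the lower left and upper right quadrants, while Mir717 and Mir767 stay near 0 at hosts that fell by 2.97 and 1.82.

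Among miRNAs known from fibroblasts and fibrosis 11 were measured, and 4 were lower (36.4%, against 2.57% of all clusters). None was higher, and the median difference was -0.25. The 4 were Mir143, Mir218-1 and Mir218-2, given above, and Mir199a-1, which read 6.60, 6.55 and 6.77 against 5.999, 5.83 and 5.77 (-0.78 ± 0.09, adjusted p = 0.00153) with separate groups. Mir221, a miRNA of proliferating cells, read 5.67, 5.66 and 5.82 against 6.24, 6.39 and 6.06 (0.51, adjusted p = 0.0122) and missed the fold limit, which it passed without KO replicate 3, and its neighbour Mir222 had 0.24. Mir199b (-0.32, adjusted p = 0.0242) and Mir152 (-0.25) were not called. Mir31 (0.02), Mir335 (0.00) and Mir140 (-0.03) were near 0. Mir29a, of the family that represses collagen mRNAs, read 8.31, 8.56 and 8.70 against 9.14, 8.60 and 8.51, with overlapping groups (0.23), and Mir29b-1 had -0.14.

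Mir34a, a target of p53, read 8.50, 8.48 and 8.91 against 8.30, 7.83 and 7.69 (-0.69 ± 0.18, adjusted p = 0.0469). It stood close to the limit, and it kept its call in 1 of the 6 fits without an array, the one without KO replicate 1; the adjusted p in the others was 0.0813 to 0.135. The other 6 miRNAs of the p53 list were not called. Mir301, in Ska2, had -0.60 (adjusted p = 0.00575) beside -0.07 for the host, and it missed the fold limit without WT replicate 3 or KO replicate 1, at -0.50 and -0.55. Mir130b, with the same seed as Mir301, had -0.06.

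Mir6920 and Mir694 were the remaining lower members. Mir6920 read 6.88, 7.30 and 7.26 against 6.29, 6.56 and 6.48 (-0.70, adjusted p = 0.0104), and Mir694 read 5.61, 5.93 and 6.02 against 5.06, 5.23 and 5.03 (-0.74, adjusted p = 0.00556). The groups of both were apart, and both kept their call whichever array was left out.

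Several families had no call, neither by limma nor by Student's t-test with the same limits. Of the epithelial miRNAs 11 were measured (3 at an unadjusted p under 0.05 by limma and 2 by Student's t-test), and Mir34b (-0.18) and Mir200a (0.22) had the smallest p. Of the striated muscle miRNAs 8 were measured (0 and 0), led by Mir208b (-0.15) and Mir1a-2 (-0.12), and of those of liver and nerve 12 (1 and 1), led by Mir124a-2 (0.16) and Mir128-2 (0.20). These last groups were dim, with array medians of 3.71 to 4.18. The endothelial Mir126b (0 and 0) had -0.09, with all arrays under the median cluster.

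The families tied to growth and stress were likewise without a call. In the miR-17 to miR-92 cluster and its paralogues 6 were measured (0 and 0 at an unadjusted p under 0.05 by limma and by Student's t-test), led by Mir92-2 (-0.11) and Mir106b (-0.07). In the miR-15 and miR-16 family 4 were measured (2 and 1), led by Mir15b (-0.55, adjusted p = 0.0207, limma) and Mir16-2 (-0.27). Without WT replicate 1 this family had 1 lower member. The miR-23, miR-27 and miR-24 clusters had 3 (1 and 1), led by Mir24-2 (-0.46) and Mir27a (-0.28), and the miR-322 and miR-503 cluster had 4 (0 and 0), led by Mir450b (-0.13) and Mir450-1 (-0.17). The miR-30 family had 6 (1 and 1), led by Mir30c-2 (-0.29, adjusted p = 0.0216, limma) and Mir30c-1 (-0.24), and the miR-181 family had 4 (1 and 1), led by Mir181b-2 (0.41, adjusted p = 0.0166, limma) and Mir181a-2 (0.11). Of the 8 listed as regulated by stress (1 and 2) Mir30c-2 and Mir210 (0.13), the miRNA of hypoxia, had the smallest p. The Hox miRNAs had 4 (1 and 0), led by Mir196a-2 (0.32) and Mir196a-1 (0.11), and Mir483 of the Igf2 gene (0 and 0) had -0.05. Some of these groups had array medians under the median cluster. They were 3.91 to 4.10 for miR-17 to miR-92, 4.273 to 4.545 for miR-322 and miR-503, and 4.38 to 4.52 for the Hox miRNAs. Little can be read from a lack of calls at such levels.

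Around the call limit, Mir487b (1.505-fold), Mir301 (1.51-fold) and Mir539 (1.52-fold) were the members just inside. Just outside by fold lay Mir680-2 (1.497-fold), Mir376b, Mirlet7b and Mir15b (1.46-fold), and just outside by adjusted p lay Mir8115 (0.0606) and Mirlet7e (0.0679).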

How the data were processed

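The values were the authors' deposited log2 values of 6 Clariom D mouse arrays, which the authors made by robust multi-array averaging (RMA) with default parameters in the Transcriptome Analysis Console. RMA quantile-normalises the arrays, so a shift in total RNA cannot be seen. The number of arrays limits precision. The annotation version is not given in the sources used here. Values reached 18.88, so folds hold on the deposited scale only. Groups and replicate numbers came from the sample labels.

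Clusters were named from the platform annotation. Of the miRNA clusters 541 that name several genes were left out, 281 of them with 2 names of 1 miRNA. RefSeq (GRCm38.p6) gave names, neighbours, hosts and sequences, and 637 of 638 members matched; 486 of 592 genes had a sequence there. Values of 66 members are identical to those of another member.

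All 65956 clusters were fitted with lmFit and eBayes (limma 3.58.1, R 4.3.3), genotype being the only term. A cluster was called at a Benjamini-Hochberg adjusted p of at most 0.05 over all clusters and a fold above 1.5. The procedure was tested on simulated data.

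Named were the 15 largest falls and all rises, the 10 brightest, the miR-29, fibroblast, haematopoietic and endothelial lists, of each other list up to 4 called members or else the 2 with the smallest p, and neighbours of called members. The remaining called members and Mir680-2, Mir376b, Mir15b and Mir8115 were named after their values were seen. Members and lists were chosen with earlier results of these data known. Alternatives were other variance models, Student's t-test, treat, a dim filter, other normalisations, a replicate block and each array left out. Counting identical clusters once and including the 2-name clusters were chosen after seeing the data.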

Additional observations from a re-analysis of the deposited data

How the results depend on the processing

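The count of 44 called members (37 lower, 7 higher) stayed within 1.5 times under the trended and robust variance models, the dim filter, both other normalisations and both added settings. Including the 281 clusters with 2 names of 1 miRNA gave 49 calls (41 lower, 8 higher) among many more clusters. The share called was then smaller than the 6.9% of the members and nearer to the 4.85% of all clusters. Student's t-test called 13 (11 lower, 2 higher) and treat against 1.5-fold 5 (5 lower, 0 higher, with 4 higher at an unadjusted p under 0.05). With single arrays left out, 29 to 43 were called, 22 to 38 lower and 5 to 8 higher. The Dlk1 to Dio3 region had 2 to 14 lower members with single arrays left out, 0 by Student's t-test (26 at an unadjusted p under 0.05) and 0 by treat (3 unadjusted). Of the 12 let-7 loci 2 were lower by Student's t-test (8 unadjusted) and 0 by treat (2 unadjusted). The let-7 count was 4 with cyclic loess, 4 with the replicate block and 3 to 6 with single arrays left out. The causes were not tested. Of the 42 genes, 12 were kept by Student's t-test and 4 by treat, and none changed sign.

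The replicate numbers did not pair the samples (same-number correlations -0.04, -0.01 and -0.22). With the replicate block 41 members were called, 34 lower and 7 higher, 13 of them in the region; the 3 genes that lost their call were Mir34a (adjusted p = 0.0997, limma), Mirlet7i (0.0574) and Mir543 (0.0554).

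Against the median of single-gene clusters 39.3% instead of 55.2% of members were at or above it. With hosts on either strand, 9 instead of 7 called members moved with their host.

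Members that were not called and lay near 0 changed sign. With cyclic loess Mir1954 was at -0.063 and Mir703 at -0.063. With single arrays left out the log2 differences ranged from -0.23 to 0.013 for Mir1191, -0.21 to 0.072 for Mir126b, -0.11 to 0.025 for Mir140, -0.00058 to 0.069 for Mir1954, -0.037 to 0.046 for Mir31, -0.087 to 0.11 for Mir335, -0.063 to 0.011 for Mir3470b, -0.12 to 0.012 for Mir3473a, -0.14 to 0.083 for Mir3473f, -0.073 to 0.013 for Mir486, -0.33 to 0.0042 for Mir541, -0.23 to 0.18 for Mir6240 and -0.034 to 0.037 for Mir673.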
